A study of Homo sapiens with 38 samples.

Results

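The interleukin 1 family and its receptors are described here through 7 genes, namely the ligand genes IL1A, IL1B and IL33, the receptor antagonist gene IL1RN and the receptor genes IL1R1, IL1RL1 and IL1RAP. They were chosen by symbol, as 18 of the 54613 probe sets on the array and 7 of the 19775 genes these represent. Of the 7, IL1A, IL1B, IL33 and IL1R1 passed the filter on low values (a log2 value above 5 on at least 2 arrays of experiment 1), among 8511 genes that did. IL1RN, IL1RL1 and IL1RAP did not pass it and are described by their levels.

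The cells were IMR90, a strain of normal human fetal lung fibroblasts. They expressed an shRNA to knock down RB (shRB), its relative p107 (shp107) or p130 (shp130), or the MLP vector, labelled as the control. In experiment 1 each of these 4 lines was senescent after ras expression, confluent, growing, or kept in 0.1% serum, with 2 arrays in each of the 16 groups. The senescent, confluent and growing groups, also those of experiment 2, were in 10% serum. Experiment 2 held 2 arrays each of senescent shRB, senescent vector and growing vector cells. By their labels the groups of a state differ in the hairpin alone. Senescent cells of every line carry ras, while cells of the other states are not labelled with it. In comparisons of senescent with other cells, ras expression and senescence thus cannot be told apart. Neither the ras allele nor the time in each state is given in the labels, and they do not say that replicates came from separate cultures, so a p-value here covers the spread from array to array, which may be technical.

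Interleukin 1 alpha, the product of IL1A, and interleukin 1 beta, the product of IL1B, bind the same receptor, IL1R1, which signals only after it recruits the accessory chain encoded by IL1RAP. Signalling passes through the adaptor MYD88 and the IRAK kinases to NF-kB, and switches on cytokines, chemokines and matrix metalloproteases in fibroblasts. The antagonist encoded by IL1RN occupies IL1R1 without signalling, while interleukin 33 acts on a receptor of its own, ST2 (IL1RL1), that shares the accessory chain. Interleukin 1 alpha at the cell surface is known as an upstream part of the secretory program of senescent fibroblasts.

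The labels were checked against the hairpin targets and against cell type markers. RB1 had log2 values of 3.64 to 6.45 in shRB cells of experiment 1, against 9.14 to 9.86 in vector cells. RBL2, which encodes p130, had 4.64 to 5.86 in shp130 cells, against 7.47 to 8.47 in vector cells. RBL1, which encodes p107, was dim and was not called with shp107 in any state, so the array does not show that knockdown. In experiment 2 the RB1 values of senescent shRB cells were 6.64 and 7.08, against 9.21 and 9.07 in senescent vector cells, a change of RB1 of -2.28, beside -5.32 in senescent cells of experiment 1. All 9 fibroblast markers passed the filter. Of the 8 monocyte and macrophage markers measured 0 passed it, with a highest value of 3.86 on any array, and of the 5 epithelial markers 0 passed it, with a highest value of 3.72. Of the endothelial (6 measured), mast cell (4) and lymphoid (6) markers 1 each passed it, TEK (5.61 to 9.52), KIT (3.18 to 7.12) and IL7R (6.65 to 9.34). The 2 arrays of a group had a Pearson r of 0.9795 to 0.9969 over all probe sets. The lowest r belonged to the 2 confluent vector arrays. Some of the results below that rest on them are also given with 1 of them left out, and the others are not. In senescent against growing vector cells 5 of the 9 fibroblast markers were called lower and 0 higher, beside 16.2% and 9.21% of all genes tested. TEK and KIT fell by 1.69 and 1.20 there. In confluent against growing vector cells 1 fibroblast marker rose (LUM, 2.22) and 2 fell (among them THY1, -2.02), beside 10.5% and 14.5% of all genes. IL7R fell by 1.21 at confluence, and in low serum KIT rose by 2.35. Their part in the results below was not tested.

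IL1A and IL1B lie close together on chromosome 2 and are transcribed from the same strand, and their levels moved together over the groups (below). The 250 bases upstream of a RefSeq start of each (build GRCh38.p14, minus strand, written 5′ to 3′) are shown because the motifs in them differ. They are chr2:112784494-112784743 for IL1A and chr2:112836780-112837029 for IL1B. Capitals mark matches to TATAAA or to the AP-1 motif TGANTCA.
IL1A: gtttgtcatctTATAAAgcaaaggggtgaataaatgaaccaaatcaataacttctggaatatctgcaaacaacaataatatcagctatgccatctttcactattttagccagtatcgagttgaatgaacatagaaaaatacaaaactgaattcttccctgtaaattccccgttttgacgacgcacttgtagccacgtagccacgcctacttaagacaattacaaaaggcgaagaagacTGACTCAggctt
IL1B: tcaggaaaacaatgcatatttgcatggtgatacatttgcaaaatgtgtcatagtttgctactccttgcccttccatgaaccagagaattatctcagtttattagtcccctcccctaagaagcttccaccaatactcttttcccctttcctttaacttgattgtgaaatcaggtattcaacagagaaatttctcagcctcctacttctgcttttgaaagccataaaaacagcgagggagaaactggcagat

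All 7 genes matched a RefSeq promoter, with 15 windows in all. They were searched on both strands for TATAAA, the AP-1 motif TGANTCA, the E2F motif TTTNNCGC and the NF-kB motif, which occur in 10.8%, 6.59%, 5.89% and 5.21% of 34788 windows of the same length upstream of RefSeq starts. The IL1A window above held TATAAA at -239 to -234 and an AP-1 match at -12 to -6 from the start. The window of the other IL1A start, a little downstream, held that same AP-1 match and 1 more. The IL1B window, both IL33 windows and the IL1RAP window held none of the 4 motifs. Of the 4 IL1R1 windows 1 held TATAAA, of the 3 IL1RN windows 1 held TATAAA and 1 an AP-1 match, and of the 2 IL1RL1 windows 1 held TATAAA and 1 an AP-1 match. No window held the E2F or NF-kB motif. A match is a description of the letters, and the absence of one says only that they are not in these windows.

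Senescent cells of every line had high IL1A and IL1B, while growing cells had IL1A at background and IL1B at lower levels. IL1A had log2 values of 10.74 and 10.20 in senescent vector cells, against 3.62 and 3.04 in growing vector cells. Since the array medians lay between 3.27 and 3.41, the growing values are at background, and a fold taken from them is a difference between array values and not the ratio of RNA amounts. On that scale IL1A rose by 7.14 ± 0.97 (log2 difference with its SE, 2 arrays against 2, limma adjusted p = 1.11e-05). IL1B had 12.81 and 12.69 in senescent vector cells, against 8.04 and 4.79 in growing vector cells, and rose by 6.33 ± 0.78 (adjusted p = 3.48e-06). It rose by 7.96 without growing vector replicate 1 and by 4.70 without replicate 2. The groups of neither gene overlapped, although growing vector replicate 1 had IL1B well above background. These are bulk RNA samples, in which more cells that make a transcript and more transcript per cell cannot be told apart. IL1A and IL1B were the members called in this comparison, in which 25.4% of all genes tested were called, 9.21% higher and 16.2% lower. IL1A and IL33 passed the filter through the groups where they are bright, so counts among the 4 tested members are given here as a description only.

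Senescent cells with each hairpin were high in both cytokines too. In senescent cells IL1A had 11.47 and 11.14 with shRB, 11.17 and 11.36 with shp107 and 10.82 and 10.50 with shp130. IL1B had 12.87 and 13.23 with shRB, 13.03 and 13.04 with shp107 and 12.87 and 12.86 with shp130. Against growing cells of the same line, IL1A rose by 8.09 with shRB, 7.98 with shp107 and 7.23 with shp130 (SE 0.97, adjusted p of 1.26e-06, 1.81e-06 and 6.3e-06). IL1B rose by 8.31, 8.13 and 5.78 in the same lines (SE 0.78, adjusted p of 4.2e-08, 8.23e-08 and 6.99e-06). The members called were 3 with shRB, 3 with shp107 and 4 with shp130, beside 32.8%, 38.2% and 32.7% of all genes tested.

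Within senescent cells no hairpin was called against vector for either cytokine. The difference of IL1A was 0.83 with shRB (95% confidence interval -1.18 to 2.85), 0.80 with shp107 (-1.22 to 2.82) and 0.19 with shp130 (-1.83 to 2.20). That of IL1B was 0.30 with shRB (-1.32 to 1.93), 0.29 with shp107 (-1.34 to 1.91) and 0.11 with shp130 (-1.51 to 1.74). These intervals are wide enough to hold changes of 2-fold and more in both genes. Their SE is shared over the 16 groups, where the confluent vector pair had the largest SD (4.26 for IL1A, 2.51 for IL1B). In senescent vector cells the SD was 0.39 and 0.08. Both arrays of IL1A with shRB and shp107, and of IL1B with every hairpin, lay above both senescent vector arrays. The lack of a call is thus not a finding of equal levels. Over all genes 9.75%, 7.84% and 1.67% were called in these comparisons with shRB, shp107 and shp130. Among the members IL33 was called with shRB, and 0 were called with shp107 or shp130, each of which had 1 member (IL1R1) with an unadjusted p under 0.05.

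Experiment 2 holds both comparisons on a separate set of arrays. IL1A had 10.93 and 10.46 in senescent vector cells, against 3.08 and 3.05 in growing vector cells, and rose by 7.63 ± 0.20 (adjusted p = 1.19e-07). IL1B had 13.25 and 13.17 in senescent vector cells, against 5.05 and 4.25 in growing vector cells, and rose by 8.56 ± 0.25 (adjusted p = 2.76e-07). Of the members 3 were called, all higher, beside 39.2% of all genes tested (18.7% higher and 20.6% lower). Senescent shRB cells had IL1A at 11.19 and 11.27 and IL1B at 13.46 and 13.35, for each gene above both senescent vector arrays. The differences from senescent vector cells, 0.53 ± 0.20 for IL1A (adjusted p = 0.0897) and 0.20 ± 0.25 for IL1B (adjusted p = 0.616), were not called. The change of senescent against growing vector cells did not differ by test between the experiments for any member, with -0.49 ± 1.28 for IL1A and -2.23 ± 1.04 for IL1B (experiment 1 minus experiment 2, adjusted p of 0.935 and 0.36, 1.50% of all genes called). Without growing vector replicate 2 of experiment 1 the IL1B difference was -3.86.

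**Figure D1:**
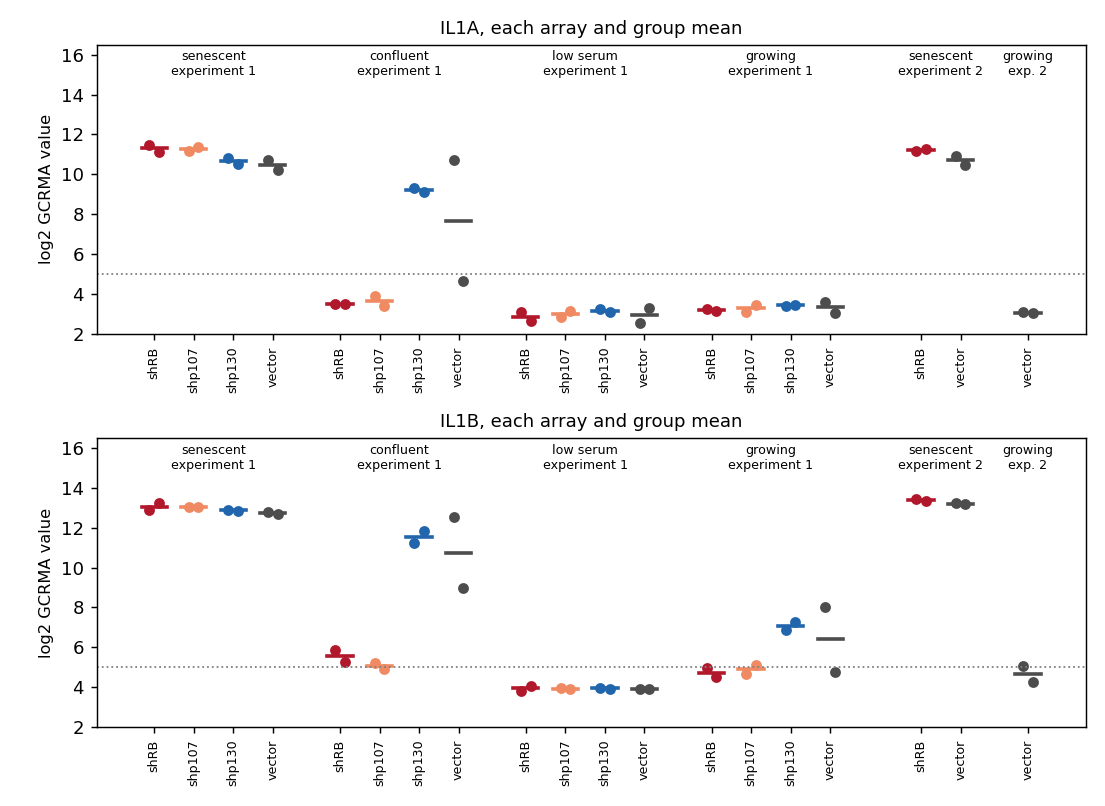
Log2 GCRMA values of IL1A (top) and IL1B (bottom) on each of the 38 arrays, with a point per array, a bar for the mean of 2 arrays and a dotted line at the filter value of 5. Both genes are high in all senescent groups, split the confluent lines into shp130 and vector (9 or more for IL1A on 3 of the 4 arrays) and shRB and shp107 (under 4 for IL1A), and differ widely between the 2 confluent vector arrays.

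Confluent lines had unlike levels of both cytokines. IL1A had 3.52 and 3.50 in confluent shRB cells, 3.89 and 3.40 in confluent shp107 cells and 9.34 and 9.11 in confluent shp130 cells, against 10.70 and 4.67 in confluent vector cells. The shRB and shp107 arrays were all at background, the shp130 arrays were all high, and of the vector arrays 1 was above the shp130 arrays and the other well below them. IL1B had 5.88 and 5.27 with shRB, 5.24 and 4.90 with shp107 and 11.22 and 11.82 with shp130, against 12.53 and 8.98 with vector. Here both vector arrays were above all shRB and shp107 arrays.

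Against growing cells of the same line, both cytokines rose at confluence in vector and shp130 cells. In vector cells IL1A rose by 4.35 ± 0.97 (adjusted p = 0.00243) and IL1B by 4.34 ± 0.78 (adjusted p = 3.76e-04), with 3 members called beside 25.1% of all genes tested (10.5% higher and 14.5% lower). The size of these changes rests on single arrays. IL1A rose by 1.34 without confluent vector replicate 1 and by 7.37 without replicate 2. IL1B rose by 2.56 without confluent vector replicate 1 and by 2.71 without growing vector replicate 2. Leaving out 1 array takes the spread of that pair out of the variance, so only the sizes are given. When only the 4 arrays compared entered the fit, neither was called (adjusted p of 0.25 for IL1A and 0.183 for IL1B).

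The shp130 line showed the same direction with close replicates. IL1A rose by 5.80 ± 0.97 (adjusted p = 2.56e-04) and IL1B by 4.44 ± 0.78 (adjusted p = 4.19e-04) in confluent against growing shp130 cells. With shRB the changes of IL1A and IL1B were 0.30 (95% confidence interval -1.72 to 2.32) and 0.84 (-0.79 to 2.46), and with shp107 they were 0.36 (-1.66 to 2.37) and 0.16 (-1.46 to 1.79), none of them called. The members called were 1 with shRB, 0 with shp107 and 3 with shp130, beside 11.1%, 8.15% and 18.6% of all genes tested. For shp107, 1 member (IL1R1) had an unadjusted p under 0.05.

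Within confluent cells both cytokines were lower with shRB and with shp107 than with vector. IL1A fell by 4.18 ± 0.97 with shRB (adjusted p = 0.00451) and by 4.04 ± 0.97 with shp107 (adjusted p = 0.00643). IL1B fell by 5.18 ± 0.78 with shRB (adjusted p = 7.48e-05) and by 5.69 ± 0.78 with shp107 (adjusted p = 2.66e-05). With shp130 neither was called, at 1.54 (95% confidence interval -0.48 to 3.56) for IL1A and 0.76 (-0.86 to 2.39) for IL1B. The members called were 3 with shRB, 3 with shp107 and 0 with shp130, beside 17.5%, 13.5% and 0.0235% of all genes tested. With shp130 0 members had an unadjusted p under 0.05.

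The confluent vector arrays set the size of these differences too. Without confluent vector replicate 1 the IL1A change was -1.16 with shRB and -1.03 with shp107. Without replicate 2 it was -7.19 and -7.05. The shp130 difference of IL1A was 4.55 without vector replicate 1 and -1.48 without vector replicate 2. For IL1B the shRB change was -3.41 without vector replicate 1. Without confluent shp107 replicate 2 the IL1A change with shp107 was not called (adjusted p = 0.0635). With only the 4 arrays compared in the fit, 0 members were called with shRB and 1 with shp107.

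Whether the effect of shRB at confluence differs from that in growing cells was tested directly. The difference of the shRB effect, confluent minus growing, was -4.06 ± 1.37 for IL1A (adjusted p = 0.127) and -3.50 ± 1.11 for IL1B (adjusted p = 0.0993). Neither was called, although both had an unadjusted p under 0.05, and 0 of the 4 members were, beside 2.55% of all genes tested. Without confluent vector replicate 2 the differences were -7.07 for IL1A and -5.28 for IL1B. Without growing vector replicate 1 that of IL1B was -5.13.

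Senescent vector cells were also set against confluent vector cells. IL1A was higher in senescent cells by 2.79 ± 0.97 (adjusted p = 0.0316), although 1 confluent array reached 10.70 and the groups overlapped. The difference of IL1A was 5.80 without confluent vector replicate 1 and -0.23 without replicate 2. Leaving out 1 or the other senescent vector array ended the call. So did only the 4 arrays compared in the fit (IL1A, adjusted p = 0.393) and no filter (0.0675). IL1B was 1.99 ± 0.78 higher, which was not called (adjusted p = 0.0546). With IL1R1, described below, 2 members were called, beside 33.4% of all genes tested (14.6% higher and 18.8% lower).

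In low serum both cytokines were at or near background in every line. IL1A lay between 2.56 and 3.29 on the 8 low-serum arrays, against 3.04 to 3.62 on the 8 growing arrays of experiment 1. IL1B lay between 3.84 and 4.04 on the low-serum arrays, and in vector cells had 3.91 and 3.90, against 8.04 and 4.79 in growing vector cells. IL1B fell by 2.51 ± 0.78 in low-serum vector cells (adjusted p = 0.0377), the 1 member called lower, beside 6.36% of all genes tested called lower and 6.69% called higher. This call rests on growing vector replicate 1, without which IL1B changed by -0.88 (adjusted p = 0.517), and on both low-serum arrays, without which in turn the adjusted p was 0.165 and 0.113. It was also lost with no filter (IL1B, adjusted p = 0.0775) and with only the 4 arrays compared in the fit (0.166).

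Hairpins were not called for any member in low-serum or growing cells. In low serum IL1A differed from vector by -0.07 with shRB, 0.07 with shp107 and 0.24 with shp130, and IL1B by 0.04, 0.02 and 0.05. Over all genes 0.0822%, 0.0352% and 0.270% were called with shRB, shp107 and shp130 there. In growing cells IL1B had 4.97 and 4.50 with shRB, 4.67 and 5.14 with shp107 and 6.89 and 7.26 with shp130, against 8.04 and 4.79 with vector. The shp130 arrays lay between the 2 vector arrays, and 1 array each of shRB and shp107 lay below both. The differences of IL1B were -1.68, -1.51 and 0.66 (SE 0.78, adjusted p of 0.758, 1.0 and 0.998). In growing cells 0.188%, 0% and 0.0587% of all genes tested were called with shRB, shp107 and shp130. For shp107 in growing cells 117 genes had an unadjusted p under 0.05. Of the members 0 had one in low serum, and 1 (IL1B with shRB) in growing cells. No gene was called for the difference of the shRB effect between low-serum and growing cells (0%), where 307 genes had an unadjusted p under 0.05.

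The second probe sets give a check on these values. For IL1B the other probe set followed the same course, with 12.61 and 9.70 in confluent vector cells, against 8.72 and 3.63 in growing vector cells. Its rise of IL1B in senescent against growing vector cells was 6.93 ± 0.95 in experiment 1 and 8.99 ± 0.20 in experiment 2 (adjusted p of 1.15e-05 and 3.19e-08 over the probe sets that passed the filter). For IL1A the other probe set stayed at 2.64 to 3.26 on all 38 arrays, so every IL1A result rests on 1 probe set.

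IL33, a cytokine that is stored in the nucleus and released from damaged cells, had another pattern. In senescent cells it had 10.06 and 8.22 with shRB, 4.39 and 3.47 with shp107 and 4.87 and 5.46 with shp130, against 5.06 and 3.65 with vector. Both senescent shRB arrays lay above all other arrays of experiment 1, and the other hairpins overlapped with vector. IL33 rose by 4.79 ± 0.73 with shRB (adjusted p = 1.37e-04), and differed by -0.43 with shp107 (95% confidence interval -1.94 to 1.09) and 0.81 with shp130 (-0.71 to 2.33), neither called. Set directly against the other hairpins in senescent cells, shRB had IL33 5.21 ± 0.73 above shp107 (adjusted p = 4.02e-05) and 3.98 ± 0.73 above shp130 (adjusted p = 7.96e-04). IL33 was the 1 member called in both of these comparisons, beside 22.6% and 12.6% of all genes tested.

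The shRB comparison of IL33 was called in senescent cells and in no other state. On the 8 low-serum arrays IL33 lay between 2.66 and 3.54. In growing cells IL33 was at background, with 2.91 and 2.88 in shRB cells, against 3.37 and 3.26 in vector cells. The difference of the shRB effect, senescent minus growing, was 5.21 ± 1.03 for IL33 (adjusted p = 0.00789), the 1 member called beside 1.99% of all genes tested. It was 4.50 without senescent vector replicate 2 (adjusted p = 0.0609) and 4.29 without senescent shRB replicate 1 (adjusted p = 0.0545), and not called in either. The same differences were 0.95 ± 1.37 for IL1A and 1.98 ± 1.11 for IL1B, not called (adjusted p of 0.897 and 0.522).

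Senescent shRB cells had IL33 6.25 ± 0.73 above growing shRB cells (adjusted p = 8.7e-07). In the other lines the change of senescent against growing cells was 1.04 with vector (adjusted p = 0.329), 0.82 with shp107 (adjusted p = 0.401) and 1.98 with shp130 (adjusted p = 0.0419). The shp130 call of IL33 was lost without any 1 of its 4 arrays, with adjusted p between 0.0777 and 0.208, and with no filter (0.084) or a floor at log2 4 (0.131).

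Experiment 2 held the shRB comparison in senescent cells a second time. IL33 had 6.74 and 7.05 in senescent shRB cells, against 4.10 and 5.37 in senescent vector cells, and growing vector cells had 2.78 and 3.28. IL33 rose by 2.16 ± 0.38 with shRB (adjusted p = 0.00713), the 1 member called, beside 20.1% of all genes tested. It rose by 1.71 ± 0.38 in senescent against growing vector cells (adjusted p = 0.00751) and by 3.87 ± 0.38 in senescent shRB against growing vector cells (adjusted p = 1.15e-04), where 3 members and 33.5% of all genes tested were called. With all 38 arrays in 1 fit, the shRB and the senescence changes of IL33 in experiment 2 were not called (adjusted p of 0.0588 and 0.0688). The senescence change was not called with values floored at log2 4 either (IL33, 0.73, adjusted p = 0.203). The shRB change was larger in experiment 1 by 2.63 ± 1.00, which was not called (adjusted p = 0.226, 1.16% of all genes called).

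At confluence IL33 had 3.19 and 3.44 in shRB cells, 2.93 and 3.42 in shp107 cells and 5.94 and 4.14 in shp130 cells, against 6.20 and 2.98 in vector cells. The 3 confluent arrays with IL33 above 4 were those with IL1A above 9. No confluent comparison of IL33 was called. Without confluent vector replicate 2 the confluent against growing change of IL33 in vector cells was 2.89, and without replicate 1 it was -0.34. IL33 has 1 probe set on the array.

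**Figure D2:**
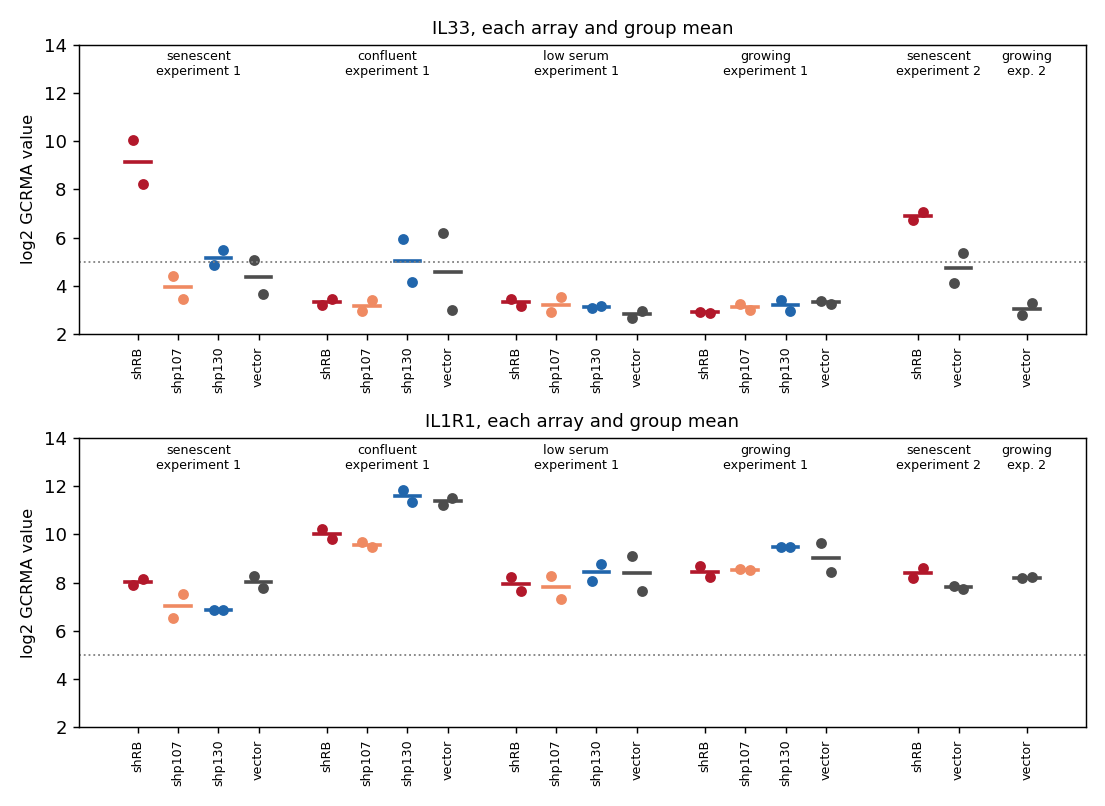
Log2 GCRMA values of IL33 (top) and IL1R1 (bottom) on each of the 38 arrays, with a point per array, a bar for the mean of 2 arrays and a dotted line at the filter value of 5. IL33 stands out in senescent shRB cells of both experiments, with means of 9.14 and 6.90, and IL1R1 is highest in confluent shp130 and confluent vector cells, with means of 11.59 and 11.37.

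The antagonist gene IL1RN was at background throughout. Its representative probe set lay between 2.89 and 3.54 on the 38 arrays, and the highest value of any of its 5 probe sets was 4.25. That value came from an IL1RN probe set which had 3.66 and 4.25 in senescent vector cells of experiment 2, against 2.34 and 2.43 in growing vector cells. It had 3.05 and 3.03 in senescent vector cells of experiment 1, against 3.05 and 2.81 in growing vector cells. Senescent shRB cells had 3.50 and 4.13 with it in experiment 2 and 4.10 and 3.21 in experiment 1. When all probe sets were tested, this one was called in senescent against growing vector cells of experiment 2 (IL1RN, change 1.57 ± 0.24, adjusted p = 0.00179), as was another at levels of at most 3.15 (IL1RN, change 0.60 ± 0.12, adjusted p = 0.00905). The 4 other IL1RN probe sets stayed at or under 3.54 on all arrays.

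IL1R1, the signalling receptor of interleukin 1 alpha and beta, was well detected on every array with the probe set used here and followed cell state in another order than its ligands. It had 11.22 and 11.53 in confluent vector cells, against 9.62 and 8.44 in growing vector cells, and rose by 2.34 ± 0.44 (adjusted p = 5.44e-04), or 5.06-fold. With only the 4 arrays compared in the fit this was not called (adjusted p = 0.0673). The other IL1R1 probe set lay between 3.26 and 3.92 on all 38 arrays, so the IL1R1 results rest on 1 probe set. The 2 confluent vector arrays that differed so much in IL1A were close to each other in IL1R1. Confluent shp130 cells had 11.86 and 11.32, confluent shRB cells 10.21 and 9.79 and confluent shp107 cells 9.68 and 9.47.

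Against growing cells of the same line, IL1R1 rose at confluence by 2.12 ± 0.44 with shp130 (adjusted p = 0.00174) and by 1.55 ± 0.44 with shRB (adjusted p = 0.0266). The shRB call was lost without any 1 of its 4 arrays (adjusted p of 0.0538 to 0.206). With shp107 the change was 1.04 (95% confidence interval 0.13 to 1.95, adjusted p = 0.162) and was not called. Within confluent cells IL1R1 fell by 1.37 ± 0.44 with shRB (adjusted p = 0.0338) and by 1.80 ± 0.44 with shp107 (adjusted p = 0.00712), each against vector. The shRB call of IL1R1 was lost without any 1 of the 4 arrays compared and under 4 other settings, while the shp107 call was lost without confluent shp107 replicate 2 (adjusted p = 0.0675) and with array weights (adjusted p = 0.0624). With shp130 the difference was 0.21 (-0.70 to 1.13).

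IL1R1 was not called higher in senescent than in growing cells of any line. It had 8.26 and 7.76 in senescent vector cells, against 9.62 and 8.44 in growing vector cells, a change of -1.02 ± 0.44 that was not called (adjusted p = 0.096). IL1R1 fell by 2.62 ± 0.44 in senescent shp130 cells, which had 6.86 and 6.84, against 9.46 and 9.48 in growing shp130 cells (adjusted p = 9.08e-05). It fell by 1.50 ± 0.44 with shp107 (adjusted p = 0.0101), a call of IL1R1 lost without senescent shp107 replicate 1 (adjusted p = 0.139) or growing shp107 replicate 1 (adjusted p = 0.0506) and with array weights (adjusted p = 0.0949). With shRB it changed by -0.42 (-1.33 to 0.49). Senescent vector cells had IL1R1 lower than confluent vector cells by 3.36 ± 0.44 (change -3.36, adjusted p = 7.39e-06), with groups that did not overlap, whereas the ligands were higher in senescent cells or not called in that comparison. In low serum IL1R1 lay between 7.32 and 9.10, and in experiment 2 senescent vector cells had 7.85 and 7.75, against 8.18 and 8.23 in growing vector cells (change -0.41, adjusted p = 0.133). Senescent shRB cells of experiment 2 had IL1R1 at 8.17 and 8.62, a difference of 0.59 ± 0.19 from senescent vector cells that was not called (adjusted p = 0.0626).

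Ordered by group mean, the 4 confluent groups came first for the receptor. The highest group means of IL1R1 were 11.59 in confluent shp130 and 11.37 in confluent vector cells, whose arrays overlapped. They were followed by confluent shRB (10.00) and confluent shp107 (9.57), and the arrays of confluent shRB lay above those of confluent shp107. From confluent shp107 down to experiment 2 growing vector cells (8.21) each group overlapped with its neighbour, and so did the groups from senescent shRB of experiment 1 (8.03) to the lowest. Senescent shp107 (7.03) and senescent shp130 (6.85) closed the order.

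The other receptor chains were dim. IL1RL1, the receptor of interleukin 33, lay between 3.29 and 4.12 on all 38 arrays with its representative probe set, and none of its 4 probe sets exceeded 4.12. In senescent shRB cells, where IL33 was high, IL1RL1 had 3.99 and 3.82, against 4.03 and 3.84 in senescent vector cells. IL1RAP, the shared accessory chain, lay between 3.73 and 5.18 with its representative probe set, above 5 on 1 array (confluent shp130), and between 3.32 and 5.25 with its other probe set, above 5 on 2 arrays.

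IL1RAP differed in experiment 2. It had 4.78 and 4.94 in senescent shRB cells, against 4.03 and 3.93 in senescent vector cells. With no filter on low values this difference of 0.88 ± 0.14 passed (adjusted p = 0.0078), and the second IL1RAP probe set, with 5.08 and 4.44 in senescent shRB cells, against 3.70 and 3.49 in senescent vector cells, changed by 1.17 ± 0.22 (adjusted p = 0.0133 over all probe sets). In experiment 1 IL1RAP had 4.60 and 4.44 in senescent shRB cells, against 4.41 and 4.17 in senescent vector cells, a change of 0.23 ± 0.28 (adjusted p = 0.815).

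**Figure D3:**
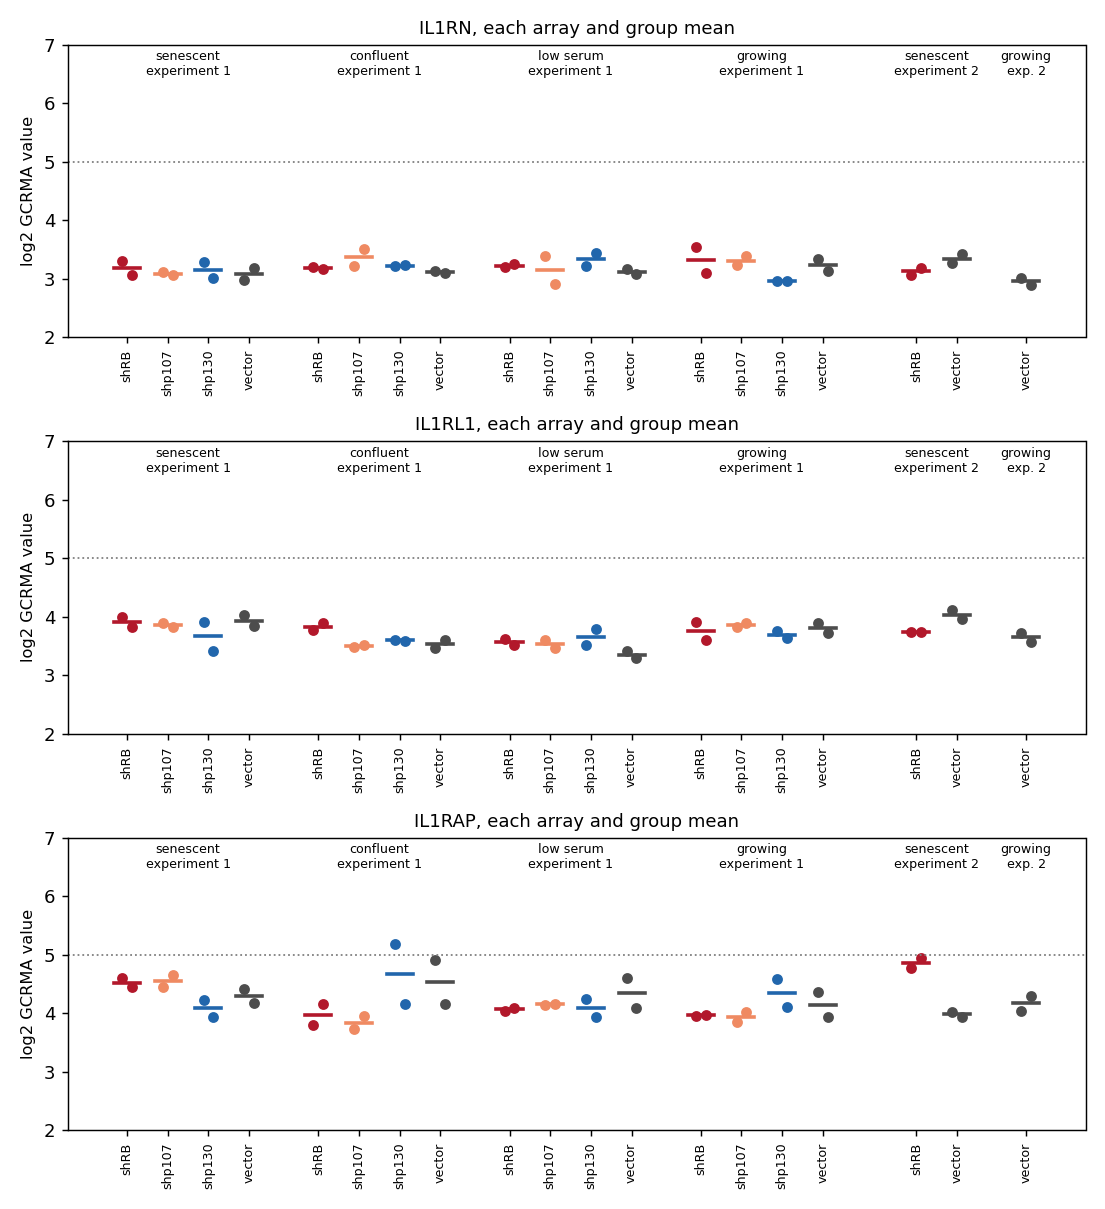
Log2 GCRMA values of IL1RN, IL1RL1 and IL1RAP by their representative probe sets on each of the 38 arrays, with a point per array, a bar for the mean of 2 arrays and a dotted line at the filter value of 5. All IL1RN and IL1RL1 values shown lie at or under 4.12, and 1 IL1RAP array lies above 5.

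**Figure D4:**
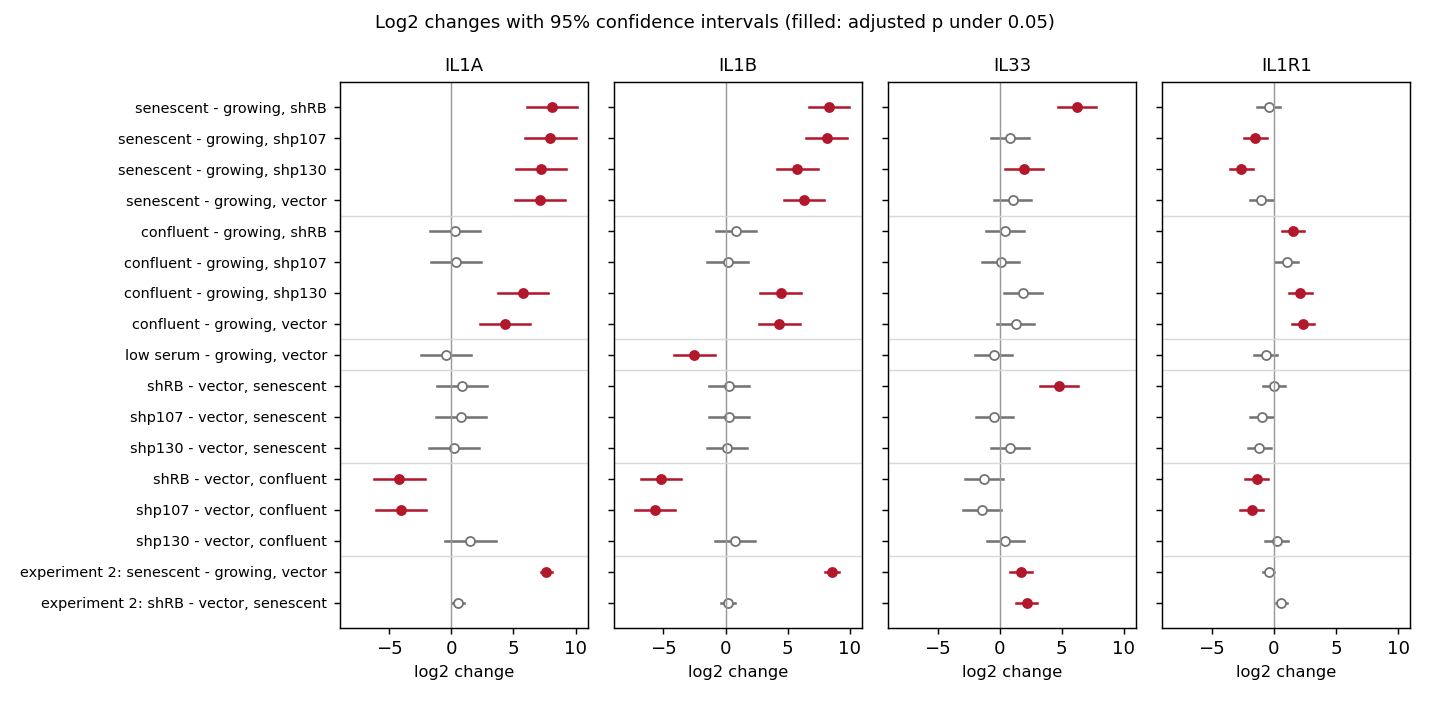
Log2 changes of the 4 tested members with 95% confidence intervals from limma, the first-named group minus the second, n = 2 arrays per group. Filled red points passed an adjusted p of 0.05 and open grey points did not. IL1A and IL1B rise with senescence in all 4 lines and with confluence in vector and shp130 cells, IL33 with shRB in senescent cells, and IL1R1 with confluence in 3 lines.

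Over the 16 group means of experiment 1, IL1A and IL1B had a Pearson correlation of 0.978, IL33 had 0.745 with IL1A and 0.719 with IL1B, and IL1R1 had -0.142, -0.034 and -0.041 with IL1A, IL1B and IL33. These points share arrays and normalization and are a description. Among all genes tested, the 3 most alike to IL1A were SLC6A15 (0.995), TMEM156 (0.994) and POU2F2 (0.992). To IL1B they were PRDM1 (0.991), KYNU (0.988) and TMEM132A (0.986). To IL33 they were PDCD6P1 (0.951), TREM1 (0.949) and TNP1 (0.94), and to IL1R1 they were PRKAR2B (0.965), MMD (0.922) and DNAH5 (0.916).

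Genes that fibroblasts are known to switch on in response to interleukin 1 were counted next, from a list of 40 of which 36 were measured and 34 tested. In senescent against growing vector cells 15 of them rose and 5 fell, and 14 passed in neither direction. Of all genes tested 9.21% were higher and 16.2% lower there, so the 5 that fell lie near the share over all genes. The median change of the list was 0.94, against -0.10 over all genes tested. The chemokine genes CXCL5, CXCL3 and CCL20 rose by 8.48 ± 0.29, 7.80 ± 0.38 and 6.43 ± 1.01 (adjusted p of 1.34e-14, 4.46e-12 and 6.21e-05). The metalloprotease gene MMP10 rose by 6.94 ± 0.65 (adjusted p = 8.11e-08). The lowest values of these genes on any array were at background (2.94, 3.16, 1.98 and 2.80). Such genes can pass the filter through the groups where they are bright, so counts of the list are a description only. Whether the genes of the list followed the level of IL1A, IL1B or IL33 was not tested. The count that fell was 0 when either growing vector replicate 1 or senescent vector replicate 2 was left out, while that which rose was 12 to 16 with any 1 array left out. In experiment 2 22 rose and 3 fell, beside 18.7% higher and 20.6% lower of all genes tested. The median of the list there was 1.46, against 0.01 over all genes tested.

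At confluence 21 of the 34 genes rose and 0 fell in vector cells against growing vector cells. Of all genes tested 10.5% were higher and 14.5% lower there. The median change of the list was 2.23, against -0.05 over all genes. CXCL3 rose by 8.13 ± 0.38 and CXCL5 by 7.85 ± 0.29 (limma adjusted p of 2.92e-12 and 6.48e-14). CXCL6 rose by 6.59 ± 0.41 and CXCL2 by 6.40 ± 0.68 (adjusted p of 3.44e-10 and 1.12e-06). The count that rose was 15 without confluent vector replicate 1, in which IL1A was high, 21 without replicate 2 and 15 without growing vector replicate 2. With only the 4 arrays compared in the fit it was 6. In confluent against growing shp130 cells 18 rose and 1 fell, with shRB 9 rose and 3 fell, and with shp107 5 rose and 4 fell. Over all genes tested 18.6%, 11.1% and 8.15% were called in these lines in either direction.

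Within confluent cells most of the list was called lower with shRB and with shp107 than with vector. With shRB 1 rose and 22 fell, with a median of -2.37, against -0.07 over all genes. With shp107 1 rose and 24 fell, with a median of -2.66, against 0.01. Of all genes tested 17.5% with shRB and 13.5% with shp107 were called in either direction. With shRB the stromelysin gene MMP3 fell by 8.22 ± 0.64 and PTGS2, which encodes the prostaglandin synthase COX2, by 7.33 ± 0.73 (adjusted p of 9.84e-09 and 4.29e-07). With shp107 they fell by 8.62 ± 0.64 and 7.46 ± 0.73 (adjusted p of 5.01e-09 and 3.2e-07). The counts that fell were 17 with shRB and 18 with shp107 without confluent vector replicate 1, and 7 and 9 with only the arrays compared in the fit. With shp130 0 of the 34 were called by limma, beside 0.0235% of all genes tested, and 3 of the list had an unadjusted p under 0.05. For the difference of the shRB effect, confluent minus growing, 0 were higher and 11 lower, beside 2.55% of all genes tested.

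In low serum 1 gene of the list rose and 12 fell in vector cells against growing vector cells. Of all genes tested 6.69% rose and 6.36% fell there. The median change of the list was -0.67, against 0.03 over all genes. IL6 fell by 4.49 ± 0.83, HAS2, a hyaluronan synthase gene, by 4.21 ± 0.85 and STC1, a glycoprotein hormone gene, by 6.07 ± 0.39 (adjusted p of 9.92e-04, 0.00237 and 2.15e-09). The 1 that rose was VCAM1, an adhesion molecule gene (5.33 ± 0.68, adjusted p = 2.2e-05). Without growing vector replicate 1, the array with high IL1B, the count that fell was 7.

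In senescent shRB cells, where IL33 was high, 9.75% of all genes tested were called against senescent vector cells in experiment 1. Of the 34 genes of the list 3 rose and 0 fell there, which is near that share. They were CSF3, the granulocyte growth factor gene (3.75 ± 1.02), CXCL6 (2.41 ± 0.41) and the bradykinin receptor gene BDKRB2 (1.32 ± 0.32), with adjusted p of 0.0202, 4.71e-04 and 0.00884. In experiment 2 16 rose and 0 fell, beside 20.1% of all genes tested called in either direction. Among the 16 were CXCL6 (3.17 ± 0.25) and CSF3 (1.83 ± 0.19, adjusted p of 2.87e-04 and 8.03e-04). That count was 7 without senescent vector replicate 1 and 8 without replicate 2, and 4 with all 38 arrays in 1 fit. The median change was 0.45 in experiment 1 and 0.52 in experiment 2, against -0.02 and -0.05 over all genes.

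**Figure D5:**
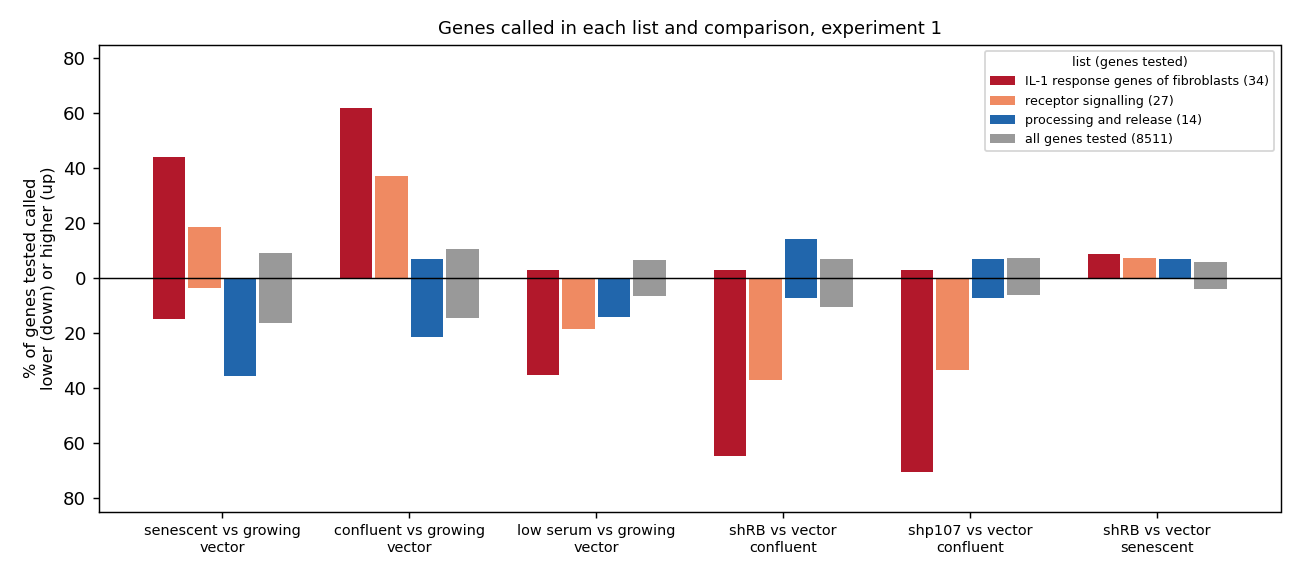
Percent of the genes tested in each list that were called higher (upward bars) or lower (downward bars) in 6 comparisons of experiment 1, beside all 8511 genes tested in grey. Of the 34 response genes 21 were higher in confluent vector cells, and 22 and 24 were lower in confluent shRB and shp107 cells than in confluent vector cells.

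Of the genes of the signalling chain below IL1R1 27 were tested. Of these 5 rose and 1 fell in senescent vector cells and 10 rose and 0 fell in confluent vector cells, each against growing vector cells, beside 9.21% higher and 16.2% lower, and 10.5% higher and 14.5% lower, of all genes tested. Their medians were 0.33 and 0.44, against -0.10 and -0.05 over all genes. The ubiquitin ligase gene PELI1 rose by 2.53 ± 0.28 in senescent and 1.57 ± 0.28 in confluent cells (adjusted p of 9.05e-07 and 3.56e-04). TNFAIP3, the NF-kB feedback inhibitor A20, rose by 1.79 ± 0.45 and 3.67 ± 0.45 (adjusted p of 0.00488 and 5.43e-06), and the kinase gene IRAK2 by 1.77 ± 0.43 and 1.72 ± 0.43 (adjusted p of 0.00388 and 0.00556). In senescent cells leaving out growing vector replicate 2 ended both the TNFAIP3 and the IRAK2 call (adjusted p of 0.122 and 0.0607), and leaving out senescent vector replicate 1 ended that of TNFAIP3 (0.0745). At confluence both were lost with only the arrays compared in the fit (0.0728 and 0.246), and that of IRAK2 without growing vector replicate 2 (0.0868) or confluent vector replicate 1 (0.186). In experiment 2 14 rose and 1 fell in senescent against growing vector cells, beside 18.7% higher and 20.6% lower of all genes tested. The change of NFKBIZ and TNIP1 differed between the experiments (-2.55 ± 0.47 and -1.82 ± 0.40, experiment 1 minus experiment 2, adjusted p of 0.00407 and 0.0189). Within confluent cells 0 rose and 10 fell with shRB, and 0 rose and 9 fell with shp107. Of all genes tested 17.5% and 13.5% were called there. IRAK2 fell in both (-2.95 ± 0.43 and -2.20 ± 0.43, adjusted p of 5.06e-05 and 0.00103). The count of 10 higher in confluent vector cells ranged from 4 to 12 with 1 array left out. The counts of 10 and 9 lower ranged from 3 to 14 and from 2 to 12. With only the arrays compared in the fit all 3 counts were 0.

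Among genes that process and release interleukin 1 14 were tested. Of these 0 rose and 5 fell in senescent against growing vector cells, beside 9.21% higher and 16.2% lower of all genes tested, with a median of -0.19, against -0.10 over all genes. CASP1, the protease that cleaves interleukin 1 beta, fell by 1.86 ± 0.60 (adjusted p = 0.0264), CARD16, an inhibitor of caspase-1, by 3.38 ± 0.57 (adjusted p = 1.37e-04) and PYCARD, the inflammasome adaptor, by 1.04 ± 0.27 (adjusted p = 0.00729). The count that fell was 3 with any 1 of the 4 arrays left out, and the CASP1 call was lost each time (adjusted p of 0.0527 to 0.171) and with no filter (0.0579). In experiment 2 2 rose and 4 fell, beside 18.7% higher and 20.6% lower of all genes tested. CASP1 and CARD16 fell there by 2.48 ± 0.24 and 2.49 ± 0.45 (adjusted p of 8.9e-05 and 0.00275). At confluence 1 of the 14 rose and 3 fell in vector cells, and 2 rose and 2 fell in shp130 cells. Of all genes tested 10.5% rose and 14.5% fell in vector cells, and 18.6% were called in shp130 cells. CASP1 rose by 1.68 ± 0.60 in vector cells (adjusted p = 0.0441), a call lost under 7 of 15 alternatives (adjusted p up to 0.422), and by 1.89 ± 0.60 in shp130 cells (adjusted p = 0.0315). The calpain genes CAPN1 and CAPNS1 and S100A13 fell in vector cells (-1.68 ± 0.27, -1.11 ± 0.28 and -1.25 ± 0.34, adjusted p of 1.44e-04, 0.00628 and 0.00941).

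Of the 15 other members of the family measured, 3 were tested. IL1RAPL1, a related receptor known mainly from neurons, rose in senescent against growing vector cells by 3.57 ± 0.58 (adjusted p = 9.39e-05). It rose by 3.67, 3.71 and 3.69 with shRB, shp107 and shp130, and by 4.19 ± 0.26 in vector cells of experiment 2 (adjusted p = 6.95e-06). Within senescent cells of experiment 2 it differed by -1.97 ± 0.26 with shRB from vector (adjusted p = 0.00227). In experiment 1 that comparison of IL1RAPL1 was not called. IL18R1, the interleukin 18 receptor, rose by 2.20 ± 0.34 in confluent vector cells (adjusted p = 8.9e-05) and by 2.51 ± 0.34 in confluent shp130 cells (adjusted p = 2.98e-05). Within confluent cells IL18R1 fell by 2.02 ± 0.34 with shRB and 2.16 ± 0.34 with shp107 (adjusted p of 2.82e-04 and 1.41e-04), and the difference of its shRB effect, confluent minus growing, was -2.03 ± 0.49 (adjusted p = 0.0245). SIGIRR, which encodes an inhibitory receptor, fell by 0.82 ± 0.25 in senescent vector cells (adjusted p = 0.0194). Leaving out growing vector replicate 2 ended this call (adjusted p = 0.136), as did leaving out 1 or the other senescent vector array (0.0513 and 0.121), and SIGIRR was not called in senescent against growing vector cells of experiment 2.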

How the data were processed

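Biotin-labelled cRNA from 1 µg of total RNA of 38 IMR90 samples was hybridised to Affymetrix arrays. The deposited values are log2 expression values per probe set, and GCRMA is the method that the submitters' processing notes name. They were used as deposited. The sources used here do not state whether GCRMA was run on all arrays jointly. Array medians lay between 3.27 and 3.41. Their number limits the precision.

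Probe sets were named from the platform annotation of 2016. Of 54613, 41091 named 1 gene, 1801 several and 11721 none. A gene is its probe set with the highest mean among those that name it alone (19775 genes). Genes above a log2 value of 5 on at least 2 arrays of experiment 1 were tested (8511).

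Groups were taken from the labels. limma 3.58.1 (R 4.3.3) was run on each experiment by itself (lmFit with 1 mean per group, eBayes, residual degrees of freedom 16 and 3, prior 4.85 and 5.35), and differences between experiments over all 38 arrays. P-values were adjusted by the Benjamini-Hochberg method within each comparison over 8511 genes, with 0.05 as the threshold of a call. Groups hold 2 arrays each. Other tools were version 1.17.8 of data.table, Python 3.11.15, numpy 2.4.6, pandas 2.3.3 and matplotlib 3.10.9. Deviations of same-numbered replicates from their group means had a median correlation of 0.041 over 120 pairs of groups in experiment 1 and -0.064 over 3 in experiment 2, and the numbers were not treated as pairs. Promoters are those of RefSeq (GRCh38.p14).

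The members, the gene lists and the comparisons were chosen with earlier results of these data known. Confluent against growing cells of the hairpin lines was added after the levels were seen. Named genes were the members, RB1, RBL1 and RBL2, up to 4 called genes per list and comparison with the largest changes, and the 3 genes whose group means correlate best with each tested member. Alternatives covered the filter, the probe set rule, normalization, a floor, variance trend, array weights, the arrays in the fit, a replicate block and leaving out each array.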

Additional observations from a re-analysis of the deposited data

Results flagged for a closer look

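For IL33 the effect of shRB differed between states by a test of the difference itself. In senescent cells IL33 had log2 values of 10.06 and 8.22 with shRB, against 5.06 and 3.65 with vector, and in growing cells 2.91 and 2.88 with shRB, against 3.37 and 3.26 with vector. The difference of the shRB effect, senescent minus growing, was 5.21 ± 1.03 (SE, limma adjusted p = 0.00789, n = 2 arrays per group). As given above, this difference was smaller and not called without senescent vector replicate 2 or without senescent shRB replicate 1. Both senescent shRB arrays were above both senescent vector arrays. Growing cells were at background for IL33 in both lines, so their difference says little about the amount of transcript. In experiment 2 IL33 had 6.74 and 7.05 in senescent shRB cells, against 4.10 and 5.37 in senescent vector cells, and growing shRB cells were not part of that experiment.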

How the results depend on the processing

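With only the arrays compared in the fit, the members called were 0 for confluent against growing vector cells (3 as reported), 0 for low serum against growing vector cells (1), 1 for senescent against confluent vector cells (2), 1 for confluent against growing shp107 cells (0), 0 for shRB and 1 for shp107 against vector in confluent cells (3 each), 2 for shRB against shp130 in senescent cells (1) and 2 for shRB against vector in experiment 2 (1). With no filter they were 0 for low serum against growing, 1 for senescent against confluent and 2 for shRB in experiment 2, where a filter at log2 4 and array weights also gave 2 and all arrays in 1 fit gave 0. The mean of probe sets gave 2 for shRB against shp107 in senescent cells (1), and array weights 1 for the shRB effect in confluent minus growing cells (0). The fit with the replicate number as a block gave 3 for shRB against vector in experiment 2. Deviations of same-numbered arrays from their group means had a correlation over 0.1 in 38 of 120 pairs of groups in experiment 1. The r there ranged from -0.376 to 0.49. In experiment 2 it was over 0.1 in 1 of 3 pairs of groups (r of -0.14 to 0.63). The numbers were not taken as pairs in the fits reported, so an effect shared by same-numbered arrays was not removed.

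With each array left out in turn, the members called were 0 to 1 for low serum against growing vector cells, 1 to 3 for senescent against confluent vector cells, 0 in each case for confluent against growing shRB cells, 1 to 4 for shp107 and 0 to 1 for shp130 against vector in confluent cells, 0 to 1 and 0 to 2 for the shRB effect in senescent and in confluent cells minus growing cells, 1 to 2 for shRB in experiment 2 and 0 to 1 for the difference between experiments in senescent against growing cells. The sign turned for IL33 in confluent against growing vector cells (-0.34 to 2.89), for IL33 with shRB (-2.89 to 0.33) and shp107 (-3.02 to 0.20) and IL1A with shp130 (-1.48 to 4.55) in confluent cells, for IL1A in senescent against confluent vector cells (-0.23 to 5.80) and for IL1B with shp107 in growing cells (-3.14 to 0.12). The cause was not tested. The calls of IL1A and IL1B in senescent against growing cells of every line, and of IL33 with shRB in senescent cells of experiment 1, stayed under every alternative run.

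Over all genes, the count called for confluent against growing vector cells was 2134 and fell to 352 with only the arrays compared and to 909 without 1 array, and for shRB against vector in confluent cells it was 1486, against 75 and 751. For shRB against vector in senescent cells it was 830, against 300 and 376, and in experiment 2 1710, against 694 with all arrays in 1 fit and 289 without 1 array. Values near the array median limit what can be said of IL1RN, IL1RL1, IL1RAP and of IL1A and IL33 outside their bright groups.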
